A study of Mus musculus with 20 samples.

Results

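The myogenic regulators and fusion genes described here are 7 genes of the satellite cell lineage: *Pax7*, *Myf5*, *Myod1*, *Myog*, *Myf6*, *Cdh15* and *Mymk*. Each was taken as the array probe set annotated to that symbol alone, and each had 1 such probe set, so 7 of the 19505 genes measured were followed. They were read in plantaris muscle of female mice aged 5 months, all of the genotype Pax7CreER/+; Rosa26DTA/+, in which tamoxifen lets a Cre recombinase made under the control of *Pax7* switch on diphtheria toxin A and so kill satellite cells. Mice given vehicle (Veh) kept their satellite cells (SC+), and mice given tamoxifen (Tam) were satellite cell-depleted (SC-). Both then had sham surgery or mechanical overload (MOV, removal of the synergist muscles) for 1, 3, 5 or 7 days, which gave 10 groups of 2 arrays, each array a pool of RNA from 2 or 3 mice. A control given tamoxifen but still holding its satellite cells was not among the groups, so the drug and the depletion cannot be told apart. Every p-value below measures the spread between pools and not between mice.

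Satellite cells are the stem cells of skeletal muscle and lie between the fibre and its basal lamina. *Pax7* is the transcription factor that marks them at rest. After injury or load they divide and enter a cascade of myogenic regulatory factors (MRFs), basic helix-loop-helix proteins that bind the E-box, CANNTG. *Myf5* and *Myod1* commit the cell, *Myog* starts differentiation, and *Myf6* (MRF4) is the member of the family that adult fibres keep making. *Cdh15* encodes M-cadherin, which holds the satellite cell to the fibre, and *Mymk* encodes myomaker, the membrane protein needed for myoblasts to fuse. *Mymx*, myomixer, is its partner in fusion. Fibres themselves raise *Myog* and the embryonic receptor genes when they lose contact with their nerve, so these transcripts are not made by satellite cells alone. In whole muscle, fewer cells of a type and less RNA per cell cannot be told apart.

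Where RefSeq (build GRCm38.p6) gave a promoter window, the 250 bases before the start site were read for E-boxes, the sites that the MRFs bind. Of the 3 members below that lay lower in SC- muscle with adjusted p-values under 0.05, *Myog* and *Cdh15* hold such sites and are printed. *Myf5*, the other, holds 0, so the choice of windows ties E-boxes to no result. Windows were matched for 4 of the 7 genes, *Pax7*, *Myf5*, *Myog* and *Cdh15*. The E-boxes are in capitals, and both windows are printed 5′ to 3′ on the strand of the gene, the first from chr1:134289754-134290003 (+) and the second from chr8:122848124-122848373 (+).
Myog: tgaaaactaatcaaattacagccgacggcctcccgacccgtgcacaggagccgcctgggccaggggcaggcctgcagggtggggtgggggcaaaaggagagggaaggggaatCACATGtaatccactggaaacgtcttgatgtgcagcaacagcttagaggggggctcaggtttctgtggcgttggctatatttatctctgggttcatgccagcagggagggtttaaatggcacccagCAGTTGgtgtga
Cdh15: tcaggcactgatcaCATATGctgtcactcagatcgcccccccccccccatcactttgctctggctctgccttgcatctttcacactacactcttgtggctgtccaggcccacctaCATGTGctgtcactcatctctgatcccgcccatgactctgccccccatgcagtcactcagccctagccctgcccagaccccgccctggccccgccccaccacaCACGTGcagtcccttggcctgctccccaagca
The *Myog* window held 2 E-boxes, CACATG from 138 to 133 bases and CAGTTG from 12 to 7 bases before the start. The *Cdh15* window held 3, CATATG from 236 to 231 bases, CATGTG from 135 to 130 bases and CACGTG from 32 to 27 bases before the start. The windows of *Pax7* and *Myf5* held 0 on either strand. An E-box was present in 66.2% of the 32851 windows of that length in the table, so its presence does not set these genes apart. The forms CAGCTG and CAGGTG, found in 13% and 17.2% of all windows, were in none of the 4. A loose MEF2 outline, CTA and TAG with any 4 bases between them, found in 3.2% of windows, was matched once in *Myf5* (CTAGGTTTAG). It takes any bases in the middle and no other ending, so it does not say which windows hold a MEF2 site. An MCAT site (CATTCC), found in 12.6%, was in none of the 4. The loose CArG outline, CC and GG with any 6 bases between them, found in 67.1% of windows, was matched in *Pax7*, *Myf5* and *Cdh15*. A match is a string of letters and was not tested as a binding site.

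Values are deposited log2 levels after RMA, an array summary that removes background, equalizes the arrays and adds up the probes of a transcript. Array medians lay between 6.5 and 6.57. The labelled tissue was borne out by its own genes, since 15 genes of the adult myofibre averaged between 17.24 and 18.91 on every array. Both sham groups held pools that were far apart. In SC+ sham the 2 pools correlated at 0.9784, the lowest of the 10 groups (up to 0.9907), and 1149 genes lay over 1 log2 unit apart, the most of any group (from 256). In SC- sham the correlation was 0.9831 and 1051 genes lay that far apart. SC+ sham replicate 2 was high in *Mymk* (12.74 against 6.87) and *Myog* (8.24 against 6.72), and with them in 11 macrophage genes (mean 9.07 against 6.90), 8 fibroblast genes (13.03 against 11.64) and 11 proliferation genes (7.32 against 6.47). In SC- sham, replicate 2 had 7 slow fibre genes at a mean of 13.57 against 11.25 in replicate 1, and the other 18 arrays lay between 10.28 and 12.91. Results that rest on a sham are therefore given without SC+ sham replicate 2 or without SC- sham replicate 2 as well, where leaving one out changes a call or moves a list. Neither pool of a sham pair is known to be the wrong one, and values of gene lists are given only for replicate 2 left out.

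The members covered a wide range of signal. *Myf6* had the highest mean over the 20 arrays (14.45), *Mymk* (9.43) and *Myog* (8.41) followed, and *Cdh15* (6.71) lay near the median of all gene means (6.51). *Myod1* (5.67), *Pax7* (4.59) and *Myf5* (4.37) lay below it, at percentiles 36.1, 15.4 and 11.6 of all genes. The 23 background control probe sets had means from 2.72 to 7.05 with a median of 5.39, so *Pax7*, *Myf5*, *Myod1* and *Cdh15* had means within that range, as did *Myog* and *Mymk* in part of their groups, and *Pax7* and *Myf5* lay below its median. Near background a log2 difference can understate a change, and no fold is given where an array of either group was below 7.05. A probe set's signal also depends on its probes, and these means do not rank the transcripts by abundance.

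**Figure D1:**
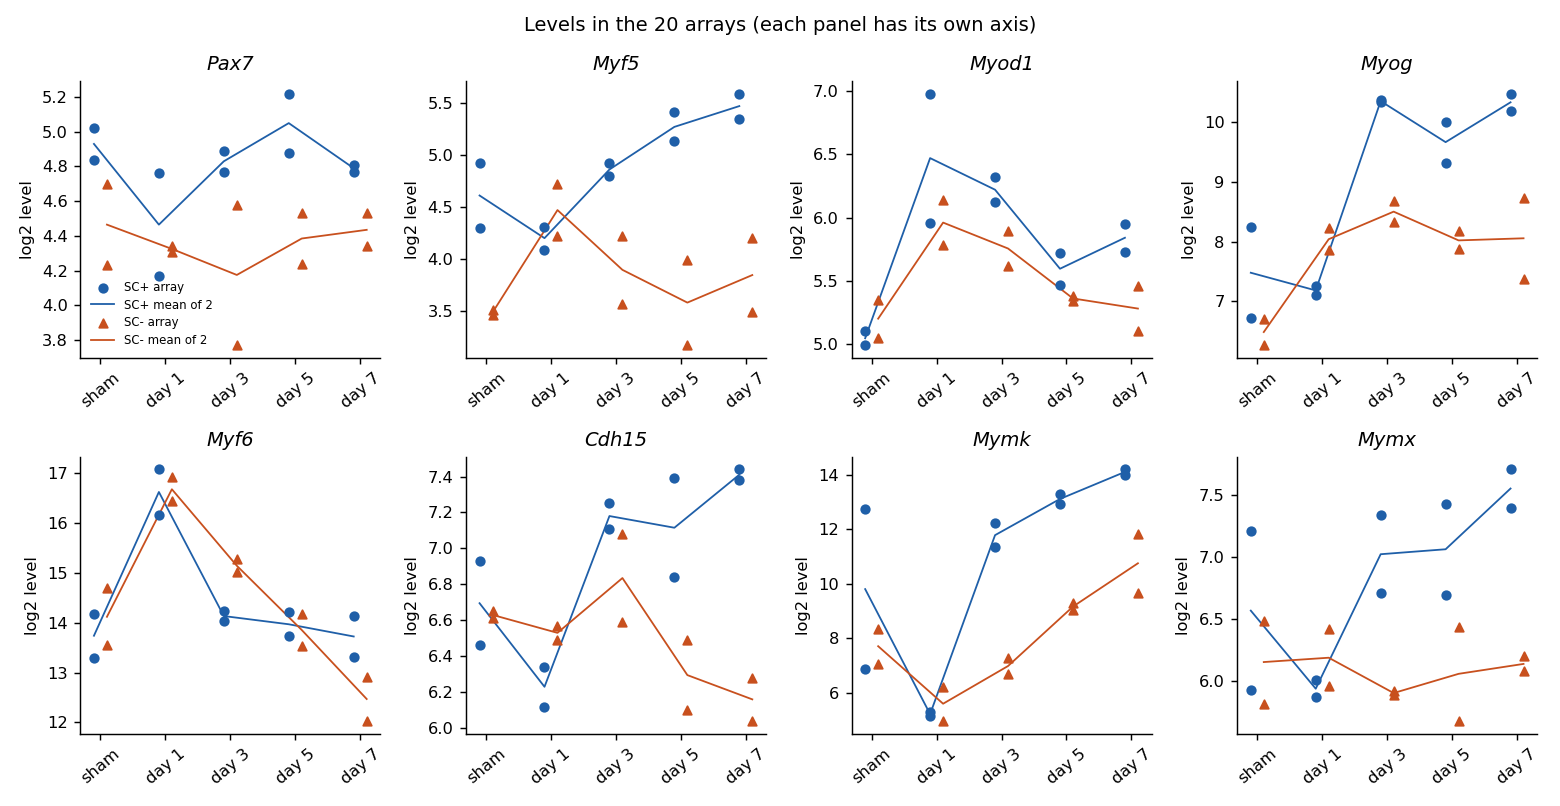
Log2 level (y axis) of the 7 genes and of *Mymx* in each of the 20 arrays by time point (x axis), with SC+ arrays as blue circles, SC- arrays as orange triangles and lines through the means of 2; each panel has its own axis. At days 3, 5 and 7 both SC- arrays lie below both SC+ arrays in every panel but that of *Myf6*, and SC+ sham replicate 2 lies far above its partner in *Mymk*.

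The plainest pattern was the separation of the groups once overload had lasted 3 days. Both SC- arrays lay below both SC+ arrays at days 3, 5 and 7 in 6 of the 7 genes, all but *Myf6*, whereas 1.22% of the 19505 genes did so (237 genes). None of these arrays is a sham, so this count does not rest on SC+ sham replicate 2. At day 1 no gene of the 7 had both SC- arrays below both SC+ arrays, and *Myog* and *Cdh15* had both SC- arrays above them.

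Tested one time point at a time in limma (called, as for every comparison between conditions below, at an unadjusted p under 0.05, with the p adjusted over all genes printed beside the values that passed), SC- muscle was lower than SC+ in 2 of the 7 genes in sham (5.58% of all genes differed in either direction), in 0 at day 1 (5.99%), in 4 at day 3 with *Myf6* higher (5.46%), in 5 at day 5 (9.2%) and in 5 at day 7 (12.1%). Medians over the 7 were -0.47, 0.27, -0.66, -0.82 and -1.26 in log2 units, against 0.01, 0.01, 0.00, 0.00 and -0.01 over all genes. The sham count of 2 and the sham median were 1 and 0.16 without SC+ sham replicate 2 and 1 and -0.23 without SC- sham replicate 2. After adjustment over all genes 3 of the 7 passed at day 7, *Myog*, *Myf5* and *Cdh15*, and 0 at the other times. Of all 19505 genes 0, 0, 6, 1 and 56 passed that threshold in sham and at days 1, 3, 5 and 7. The comparisons at the 5 time points share no array.

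**Figure D2:**
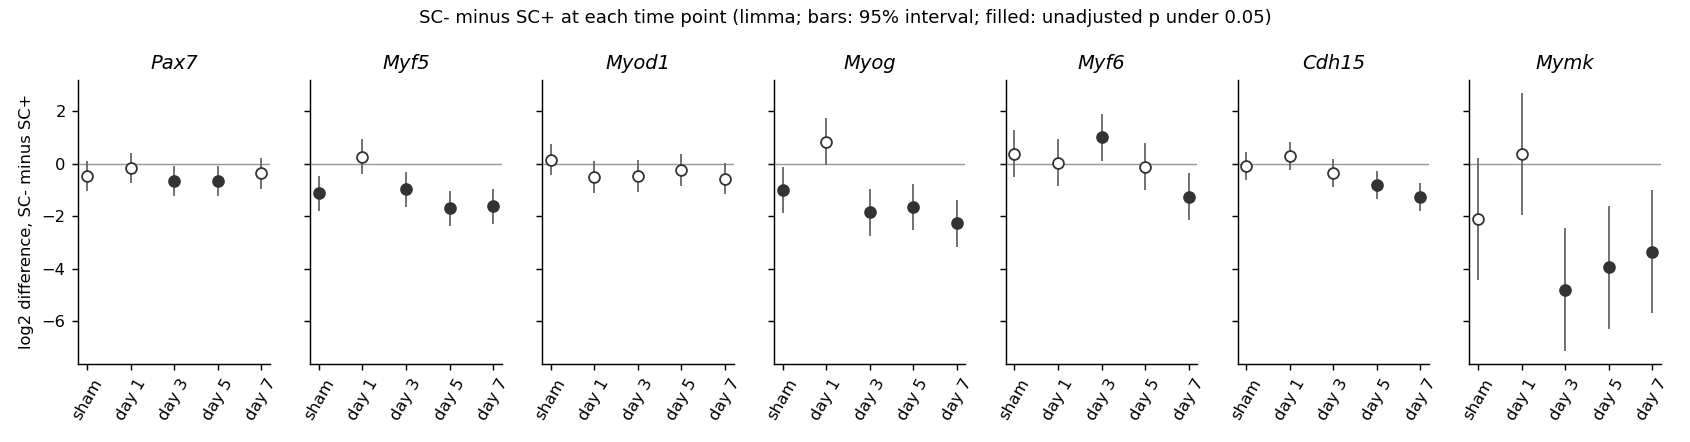
Difference in log2 level between SC- and SC+ muscle (y axis) for each gene at each time point (x axis), with the 95% interval from limma over the 20 arrays; filled points passed an unadjusted p under 0.05. *Mymk* reached -4.79 at day 3 with the widest intervals, and *Myog*, *Myf5* and *Cdh15* lay furthest from 0 relative to their intervals at day 7.

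The response of the 7 to MOV was called at an adjusted p under 0.05. In SC+ muscle 3 changed at day 1 (17.7% of all genes), 2 at day 3 (21.5%), 1 at day 5 (19.2%) and 3 at day 7 (18.1%). In SC- muscle 3 changed at day 1 (14.4%), 1 at day 3 (21.3%), 1 at day 5 (27.9%) and 3 at day 7 (28.6%). With so few genes these counts of 1 to 3 of 7 are given as a description beside the shares of all genes. These counts rest on both shams of a condition. With 1 sham left the spread between the shams drops out of the fit, so no counts are given for it here. Sizes with a sham left out, and the calls that leaving out a sham ended, are given by gene below. From 1 sampled day to the next in SC+ muscle, 4 of the 7 changed between days 1 and 3 (7.7% of all genes), 0 between days 3 and 5 (0.205%, with 1 at an unadjusted p under 0.05) and 0 between days 5 and 7 (0.0103%, with 0 unadjusted). In SC- muscle 1 changed between days 1 and 3 (6.23%), 0 between days 3 and 5 (0.528%, with 2 unadjusted) and 0 between days 5 and 7 (0.041%, with 1 unadjusted). The percentages are at the adjusted threshold. Unadjusted, 1971 of the 19505 genes passed in SC+ and 2407 in SC- muscle between days 3 and 5. Between days 5 and 7 these were 975 and 1489.

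*Pax7*, the satellite cell's own marker and the gene whose control drives the depletion, was low in every array. In SC+ muscle it was at 4.84 and 5.02 in sham, 4.17 and 4.76 at day 1, 4.89 and 4.77 at day 3, 5.22 and 4.88 at day 5, and 4.77 and 4.81 at day 7. In SC- muscle it was at 4.70 and 4.23 in sham, 4.34 and 4.31 at day 1, 3.77 and 4.58 at day 3, 4.53 and 4.24 at day 5, and 4.53 and 4.34 at day 7. Both SC- arrays lay below both SC+ arrays at every time point but day 1, where SC+ replicate 1 was the lowest of the 4. The differences were -0.66 ± 0.28 (SE) at day 3 (adjusted p = 0.87) and -0.66 ± 0.28 at day 5 (adjusted p = 0.458), and -0.47 in sham (95% interval -1.05 to 0.11), -0.15 at day 1 (-0.72 to 0.43) and -0.36 at day 7 (-0.94 to 0.22). Over all time points *Pax7* was lower by a mean difference of -0.46, at 5 of 5 time points (exact two-sided permutation of SC- and SC+ arrays within time points, p = 0.00103, where 0.000257 is the smallest p that the 7776 arrangements allow), though not after adjustment over all genes in the additive limma fit (adjusted p = 0.212). The day 3 difference was lost without SC- day 3 replicate 1 (-0.25) or either SC+ day 3 array, and the day 5 difference without SC- day 5 replicate 2 or SC+ day 5 replicate 1. Against sham no *Pax7* value passed at any day in either condition, with values between -0.46 and 0.12 in SC+ and between -0.29 and -0.03 in SC- muscle. At levels below the background median a change can be understated, so a response to MOV is not excluded.

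*Myf5*, the first of the commitment factors, lay lower in SC- than in SC+ muscle at every time point but day 1. Its SC+ levels were 4.30 and 4.92 in sham, 4.31 and 4.09 at day 1, 4.92 and 4.80 at day 3, 5.41 and 5.13 at day 5, and 5.59 and 5.35 at day 7. Its SC- levels were 3.46 and 3.51 in sham, 4.72 and 4.22 at day 1, 4.22 and 3.57 at day 3, 3.99 and 3.17 at day 5, and 4.20 and 3.49 at day 7. The SC+ arrays of days 5 and 7 were thus the 4 highest and those of SC- sham were among the lowest. Compared to sham, SC+ muscle rose by 0.86 ± 0.25 at day 7 (adjusted p = 0.0345), and SC- muscle by 0.98 ± 0.32 at day 1 (adjusted p = 0.0456). SC- lay below SC+ by -1.12 in sham (adjusted p = 0.733), -0.96 at day 3 (adjusted p = 0.737), -1.69 at day 5 (adjusted p = 0.129) and -1.62 at day 7 (adjusted p = 0.0317). At day 1 the difference was 0.27 (95% interval -0.40 to 0.94). The sham difference was -0.81 without SC+ sham replicate 2 and -1.43 without SC+ sham replicate 1.

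The *Myf5* calls against sham were fragile. The SC+ rise at day 7 was lost when SC+ sham replicate 1 or any of the 4 arrays of SC+ days 3 and 7 was left out (0.55 to 1.17). It was 1.17 without SC+ sham replicate 2, where the rise at day 5 was 0.97. The SC- rise at day 1 was lost without any 1 of 11 arrays, SC- day 1 replicate 1, both SC- sham arrays and the 8 SC+ MOV arrays. The day 3 difference between conditions was lost without SC- day 3 replicate 2 (-0.64), and leaving out any 1 of the 20 arrays did not end those of days 5 and 7.

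*Myod1*, the other commitment factor, was highest at the first day of overload. Its SC+ levels were 4.99 and 5.10 in sham, 6.98 and 5.96 at day 1, 6.12 and 6.32 at day 3, 5.72 and 5.47 at day 5, and 5.95 and 5.73 at day 7. Its SC- levels were 5.05 and 5.35 in sham, 6.14 and 5.78 at day 1, 5.62 and 5.89 at day 3, 5.38 and 5.34 at day 5, and 5.46 and 5.10 at day 7. All 8 SC+ MOV arrays lay above both SC+ sham arrays. SC+ muscle rose by 1.43 ± 0.30 at day 1 (adjusted p = 0.00653) and by 1.18 ± 0.30 at day 3 (adjusted p = 0.0147), and was at 0.56 and 0.80 above sham at days 5 and 7 (adjusted p = 0.241 and 0.0945). SC- muscle was at 0.76 above its sham at day 1 (adjusted p = 0.0829) and at 0.55, 0.16 and 0.08 later, none of which passed. The SC+ rises of days 1 and 3 were 1.48 and 1.23 without SC+ sham replicate 2. The day 1 rise was 0.91 without SC+ day 1 replicate 1 and no longer passed, and the day 3 rise was lost without SC+ day 3 replicate 2 or SC+ sham replicate 1.

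Although both SC- arrays of *Myod1* lay below both SC+ arrays at days 3, 5 and 7, no single time point passed, with differences of -0.51 at day 1 (95% interval -1.10 to 0.09), -0.47 at day 3 (-1.06 to 0.13), -0.24 at day 5 (-0.83 to 0.36) and -0.56 at day 7 (-1.15 to 0.03). The intervals therefore reach from no difference to about 1 log2 unit. Over the 5 time points the mean difference was -0.32, lower at 4 of 5 (exact two-sided permutation p = 0.0206), and the additive limma fit gave it an adjusted p = 0.46. *Myod1* did not separate in sham, at 0.16 (-0.44 to 0.75).

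*Myog*, which starts differentiation, rose in both conditions and reached different levels. In SC+ muscle it was at 6.72 and 8.24 in sham, 7.11 and 7.26 at day 1, 10.36 and 10.33 at day 3, 10 and 9.32 at day 5, and 10.47 and 10.18 at day 7. In SC- muscle it was at 6.71 and 6.27 in sham, 8.22 and 7.86 at day 1, 8.32 and 8.68 at day 3, 8.17 and 7.87 at day 5, and 8.73 and 7.38 at day 7. In SC+ the step came between days 1 and 3 (3.16 ± 0.42, adjusted p = 0.000187), and in SC- muscle both arrays were already above both of their shams at day 1 and the day 3 arrays stayed close to them. Against sham the SC+ rises were 2.86 ± 0.40 at day 3 (adjusted p = 0.000383), 2.17 at day 5 (adjusted p = 0.00303) and 2.84 at day 7 (adjusted p = 0.000744), and day 1 was at -0.30. The SC- rises were 1.55 ± 0.42 at day 1 (adjusted p = 0.0177), 2.01 at day 3 (adjusted p = 0.00167), 1.53 at day 5 (adjusted p = 0.00992) and 1.56 at day 7 (adjusted p = 0.00819).

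Between conditions, *Myog* was lower in SC- muscle by -1.85 ± 0.42 at day 3 (3.6-fold, adjusted p = 0.441), -1.64 at day 5 (3.12-fold, adjusted p = 0.246) and -2.27 at day 7 (4.83-fold, adjusted p = 0.0246), and leaving out any 1 of the 20 arrays ended none of these calls. The sham difference of -0.99 (adjusted p = 0.864) was -0.23 and no longer passed without SC+ sham replicate 2, and it was lost without SC- sham replicate 2. At day 1 *Myog* was at 0.85 in SC- relative to SC+, with both SC- arrays above. Without SC+ sham replicate 2 the SC+ rises were 3.62, 2.94 and 3.6 at days 3, 5 and 7, and without SC+ sham replicate 1 they were 2.10, 1.41 and 2.08. The SC- rises of days 1, 5 and 7 were 1.33, 1.31 and 1.35 and no longer passed without SC- sham replicate 2, and that of day 3 was 1.79. The rises of days 1, 5 and 7 were also lost without replicate 1 of the MOV day in question.

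*Myf6*, the factor of adult fibres and the neighbour of *Myf5* on chromosome 10, was the only member of the 7 with a mean difference between conditions above 0 over the 5 time points. Its SC+ levels were 13.30 and 14.18 in sham, 16.17 and 17.08 at day 1, 14.04 and 14.23 at day 3, 14.21 and 13.73 at day 5, and 14.14 and 13.31 at day 7. Its SC- levels were 13.55 and 14.69 in sham, 16.92 and 16.44 at day 1, 15.01 and 15.28 at day 3, 14.17 and 13.54 at day 5, and 12.91 and 12.03 at day 7. The 4 arrays of day 1 were the highest of all in both conditions and did not separate by condition. The rise at day 1 was 2.89 ± 0.39 in SC+ (7.39-fold, adjusted p = 0.000383) and 2.55 ± 0.43 in SC- muscle (5.87-fold, adjusted p = 0.00044), and neither was lost without any 1 array. The SC+ rise was 3.33 without SC+ sham replicate 2 and the SC- rise 3.12 without SC- sham replicate 2. The SC- value of day 3 was 1.59 without SC- sham replicate 2 and 0.45 without SC- sham replicate 1. From day 1 to day 3 *Myf6* fell again, with -2.49 in SC+ (adjusted p = 0.00145) and -1.53 in SC- muscle (adjusted p = 0.0391). The SC- fall was lost without any 1 of 6 arrays, both SC- day 1, both SC- day 3 and both SC+ day 3 arrays.

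By day 7 *Myf6* in SC- muscle was below its sham, at -1.65 (3.14-fold lower, adjusted p = 0.0059), and both arrays lay below every other array of the 20. SC- minus SC+ was 1.01 at day 3 (adjusted p = 0.87) and -1.25 at day 7 (adjusted p = 0.218), so the sign of the difference turned between these days, whereas sham (0.39), day 1 (0.05) and day 5 (-0.11) did not pass. The day 3 difference was lost without SC- day 3 replicate 2 or either SC+ day 3 array, the day 7 difference without SC- day 7 replicate 2 (-0.81) or SC+ day 7 replicate 1, and the fall at day 7 without SC- day 7 replicate 2 or SC- sham replicate 2 (-1.08). Over all time points the mean difference was 0.02 (exact two-sided permutation p = 0.955).

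*Cdh15*, M-cadherin, had the narrowest range of the 7. In SC+ muscle it was at 6.46 and 6.93 in sham, 6.34 and 6.12 at day 1, 7.11 and 7.25 at day 3, 7.39 and 6.84 at day 5, and 7.44 and 7.38 at day 7. In SC- muscle it was at 6.65 and 6.61 in sham, 6.49 and 6.57 at day 1, 6.59 and 7.08 at day 3, 6.49 and 6.10 at day 5, and 6.28 and 6.04 at day 7. The highest SC+ levels and the lowest SC- levels were both at day 7. It rose between days 1 and 3 in SC+ muscle (0.95 ± 0.25, adjusted p = 0.0257, lost without any 1 of the 4 arrays of those days) and passed against sham at no day in either condition, with 0.72 at day 7 in SC+ (adjusted p = 0.0727) and -0.47 in SC- (adjusted p = 0.189). The SC+ day 7 value was 0.95 without SC+ sham replicate 2 and 0.49 without SC+ sham replicate 1. SC- lay below SC+ by -0.82 at day 5 (adjusted p = 0.308) and -1.26 at day 7 (adjusted p = 0.0377). The day 5 difference was lost without SC- day 5 replicate 2 or SC+ day 5 replicate 1, and leaving out any 1 array did not end that of day 7.

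*Mymk*, myomaker, had the largest range. Its SC+ levels were 6.87 and 12.74 in sham, 5.31 and 5.15 at day 1, 12.23 and 11.33 at day 3, 12.93 and 13.28 at day 5, and 14.19 and 14 at day 7. Its SC- levels were 8.35 and 7.08 in sham, 6.24 and 4.98 at day 1, 6.71 and 7.27 at day 3, 9.29 and 9.04 at day 5, and 11.82 and 9.68 at day 7. Among MOV arrays the level was lowest at day 1 in both conditions. Between days 1 and 3 it rose in SC+ muscle by 6.55 ± 1.11 (adjusted p = 0.00133, 7.7% of all genes having changed), a step that uses no sham array and starts from day 1 arrays below the background median, whereas the same step in SC- muscle was 1.38 ± 1.11 (adjusted p = 0.562). SC- lay below SC+ by -4.79 ± 1.11 at day 3 (adjusted p = 0.472), -3.94 at day 5 (15.4-fold, adjusted p = 0.286) and -3.34 at day 7 (10.1-fold, adjusted p = 0.203). The day 7 difference was -2.27 and no longer passed without SC- day 7 replicate 2. Leaving out any 1 of the 20 arrays ended neither the day 3 nor the day 5 difference.

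Against sham the size of the *Mymk* response, and at day 3 its sign, depended on SC+ sham replicate 2. With both shams SC+ muscle fell at day 1, with -4.57 ± 1.24 (adjusted p = 0.0242), and rose at day 7 by 4.29 ± 1.24 (adjusted p = 0.0325), and was at 1.98 and 3.30 at days 3 and 5 (adjusted p = 0.321 and 0.0887). Without SC+ sham replicate 2 the values at days 1, 3, 5 and 7 were -1.64, 4.91, 6.24 and 7.23. Without SC+ sham replicate 1 they were -7.51, -0.95, 0.37 and 1.36. With 1 sham array left, the spread between the shams drops out of the fit, so only the sizes are given. The fall at day 1 and the rise at day 7 kept their sign with either sham alone, and each was lost without either of the MOV arrays of its day. In SC- muscle *Mymk* rose at day 7 by 3.04 ± 1.11 (8.23-fold, adjusted p = 0.0474), a call that 15 of the 20 arrays could each end, among them SC- day 7 replicate 1 (1.97) and both SC- shams. In sham SC- minus SC+ was -2.09 (95% interval -4.42 to 0.24), -5.03 without SC+ sham replicate 1 and 0.84 without SC+ sham replicate 2.

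**Figure D3:**
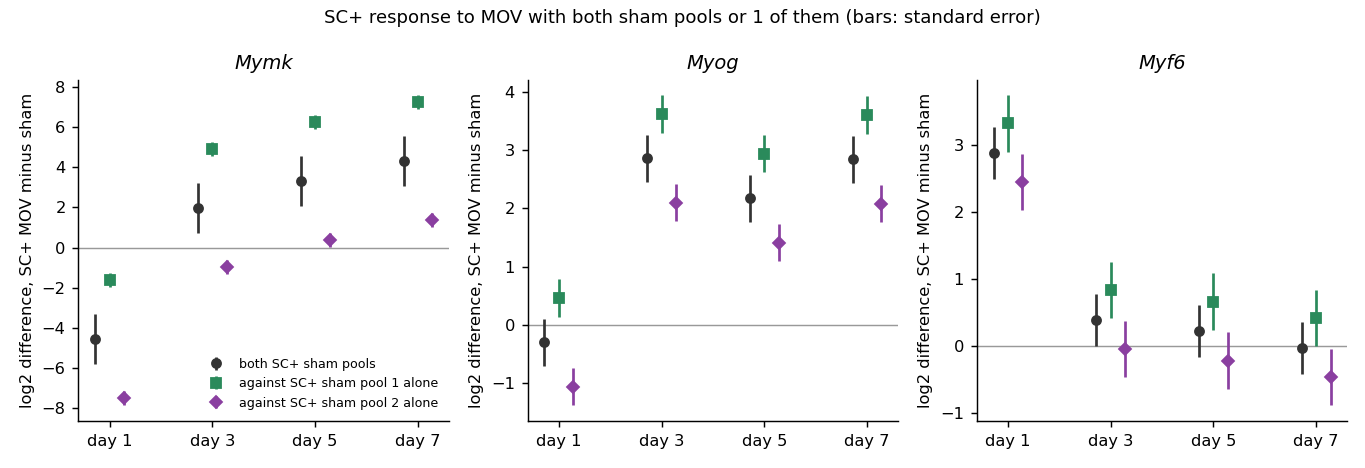
Log2 difference between SC+ MOV and SC+ sham (y axis) at days 1, 3, 5 and 7 (x axis) for *Mymk*, *Myog* and *Myf6*, with both sham pools (black) or with pool 1 (green) or pool 2 (purple) alone, and the standard error from limma. For *Mymk* the day 3 value runs from -0.95 to 4.91 by the pool used, while *Myog* stays above 0 at days 3, 5 and 7 and *Myf6* at day 1. With 1 pool the standard error leaves out the spread between the shams.

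*Mymx*, myomixer, which with myomaker completes fusion, was not one of the 7. It was at 5.93 and 7.21 in SC+ sham, 6.01 and 5.87 at day 1, 7.34 and 6.71 at day 3, 7.43 and 6.70 at day 5, and 7.40 and 7.71 at day 7, and in SC- muscle between 5.68 and 6.49 in all 10 arrays. It showed the same high reading in SC+ sham replicate 2 as *Mymk*. SC- lay below SC+ by -1.12 at day 3, -1.01 at day 5 and -1.42 at day 7 (adjusted p = 0.759, 0.4 and 0.111), and all 3 passed unadjusted.

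Whether the 2 conditions responded differently to MOV was tested directly, as the SC- change from its sham minus the SC+ change from its sham. At an unadjusted p under 0.05, 2 of the 7 passed at day 1 (4.93% of all genes), 0 at day 3 (4.2%), 1 at day 5 (7.8%) and 3 at day 7 (9.28%), and none passed after adjustment. *Myf5* (1.39) and *Myog* (1.85) were above 0 at day 1, and *Cdh15* was below it at day 5 (-0.75) and at day 7 (-1.19), with *Myog* (-1.28) and *Myf6* (-1.64). *Mymk* was at -2.70, -1.85 and -1.25 at days 3, 5 and 7 with intervals that include 0. Without SC+ sham replicate 2 the *Mymk* values were -5.63, -4.78 and -4.18, and without SC+ sham replicate 1 they were 0.23, 1.09 and 1.68. For *Myog* the values at days 1 and 7 were 1.09 and -2.04 without SC+ sham replicate 2. They were 2.61 and -0.52 without SC+ sham replicate 1, and 1.63 and -1.50 without SC- sham replicate 2. With 1 sham left the spread between the shams drops out of these fits, so only sizes are given.

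Over all 5 time points in an additive fit, SC- minus SC+ passed for 0 of the 7 in limma at an adjusted p under 0.05 (0.041% of all genes, 8 genes). At an unadjusted p under 0.05 it passed for 6 of the 7 and for 1698 of all 19505 genes. The exact permutation of arrays within time points, one gene at a time and not adjusted for the number of genes, gave p = 0.00154 for *Myf5* (mean difference -1.03), 0.00514 for *Mymk* (-2.76), 0.0072 for *Myog* (-1.18) and 0.0303 for *Cdh15* (-0.44). *Myf5*, *Mymk*, *Myog* and *Cdh15* were each lower at 4 of 5 time points, with day 1 as the exception.

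Ordered by level, the groups separated most in *Mymk* and least in *Pax7*, *Myf5* and *Myod1*. Of the 9 steps between neighbouring groups in that order, the ranges of the 2 arrays were apart in 4 for *Mymk*, 3 for *Myog* and *Myf6*, 2 for *Cdh15* and 1 for each of the others. For *Mymk* the 2 highest groups were SC+ day 7 and day 5, each apart from the next. For *Myog*, SC+ days 3 and 7 overlapped at the top, SC+ day 5 stood apart below them, and the 4 SC- MOV groups followed. For *Myod1* the top 6 groups formed an unbroken run of overlapping ranges.

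Among the 7, *Myog* ran most closely with *Cdh15* (r = 0.78), *Myf5* (0.76) and *Mymk* (0.76) over the 20 arrays. *Myf6* ran with *Myod1* (0.61), which also had its highest group means at day 1, and against *Mymk* (-0.64), and *Myf5* and *Myf6*, which share a locus, were unrelated in level (0.03). These coefficients describe arrays that share time point, condition and SC+ sham replicate 2. Of genes outside the 7 with a mean of at least 6, those most like *Mymk* were *Tnnt2* (r = 0.977), the embryonic and cardiac troponin T, *Myh3* (0.971), the embryonic myosin heavy chain, and *Myl4* (0.919), the embryonic myosin light chain. *Myf6* was most like *Gadd45a* (0.962), a stress gene that rises in denervated fibres, *Musk* (0.96), the receptor kinase of the neuromuscular junction, and *Naa25* (0.949). *Myog* was most like *Cnot6l* (0.896), *E2f8* (0.88), a cell cycle repressor, and *Cd82* (0.871), a membrane protein known from human satellite cells. For the other members the closest were *Eif3d* (0.855), *Sap30* (0.84) and *Rcan1* (0.827) for *Myod1*, *Fndc3c1* (0.838), *Npnt* (0.798) and *Megf10* (0.771), a satellite cell receptor, for *Myf5*, *Arpp21* (0.807), *Fndc3c1* (0.807) and *Trit1* (0.782) for *Cdh15*, and *Pnmal2* (0.801), *Mef2a* (0.77) and *Olfr920* (0.756) for *Pax7*.

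*Myh3* showed how close the likeness to *Mymk* was. In SC+ muscle it was at 7.46 and 13.62 in sham, 6.21 and 6.04 at day 1, 12.45 and 10.47 at day 3, 13.67 and 14.59 at day 5, and 16.51 and 16.21 at day 7. In SC- muscle it was at 8.40 and 7.63 in sham, 5.69 and 7.12 at day 1, 7.28 and 7.55 at day 3, 9.46 and 8.63 at day 5, and 12.83 and 10.72 at day 7. SC+ sham replicate 2 and SC- day 7 replicate 1 were the high arrays of their pairs, as in *Mymk*. SC- minus SC+ was -4.05 at day 3, -5.08 at day 5 and -4.58 at day 7 (adjusted p = 0.631, 0.203 and 0.104). In *Tnnt2* these differences were -3.73, -3.89 and -3.44 (adjusted p = 0.37, 0.158 and 0.0782), and in *Myl4* they were -1.11, -2.63 and -2.92 (adjusted p = 0.893, 0.129 and 0.0164).

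**Figure D4:**
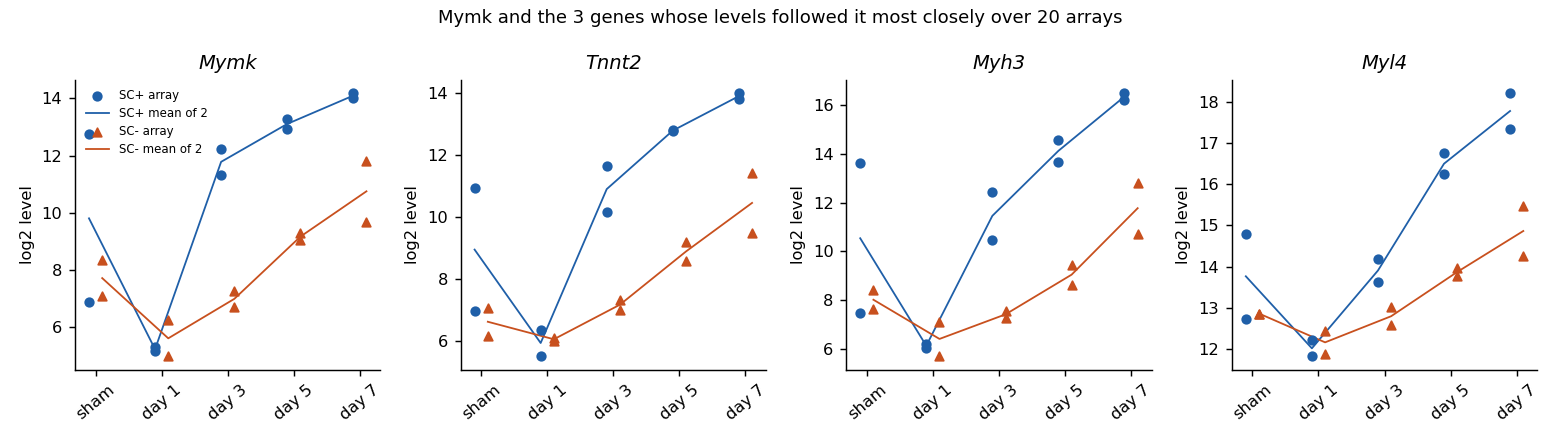
Log2 level (y axis) by time point (x axis) of *Mymk* and of *Tnnt2*, *Myh3* and *Myl4*, the genes with the highest correlation with it over 20 arrays (0.977, 0.971 and 0.919), with SC+ arrays as blue circles, SC- arrays as orange triangles and lines through the means of 2. In all 4 panels SC+ lies above SC- at days 3, 5 and 7, SC+ sham replicate 2 lies above its partner, and SC- day 7 replicate 1 lies above replicate 2.

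The genes that the MRFs switch on in differentiation differed most between conditions at day 7. Of 21 such genes, 4, 1, 8 and 13 rose in SC+ muscle at days 1, 3, 5 and 7 and 8, 3, 3 and 3 fell (medians -0.14, 0.42, 0.74 and 1.24). Of all 19505 genes, 1696, 2334, 2215 and 2040 rose in SC+ muscle at these days and 1761, 1856, 1535 and 1481 fell. In SC- muscle 1326, 2279, 2900 and 2935 of all genes rose and 1486, 1867, 2536 and 2653 fell. With SC+ sham replicate 2 left out the SC+ medians of the 21 genes were -0.18, 0.68, 1.11 and 1.37. In SC- muscle 4, 2, 4 and 4 rose and 1, 3, 3 and 4 fell (medians 0.20, 0.36, 0.31 and 0.60), and with SC- sham replicate 2 left out 3, 1, 2 and 3 rose and 0, 3, 3 and 3 fell. SC- minus SC+ was lower in 4 in sham and in 1, 7, 11 and 16 at the 4 days, and higher in 2 at day 1 and 0 at the other times, with medians of -0.38, 0.14, -0.01, -0.82 and -1.20. Over all genes 5.58%, 5.99%, 5.46%, 9.2% and 12.1% differed in either direction at these times, and these shares also apply to the lists below. The 4 genes lower in sham were 1 without SC+ sham replicate 2 (median -0.11) and 0 without SC- sham replicate 2 (median -0.33). At day 7 the widest differences were in *Myh3*, *Tnnt2*, *Myl4* and the calsequestrin *Casq2*, and in *Actc1*, cardiac actin, the difference was -1.97 (adjusted p = 0.0463). The fetal receptor subunit *Chrng* was at -1.86, -1.34 and -1.82 at days 3, 5 and 7 (adjusted p = 0.599, 0.394 and 0.124). Both SC- arrays lay below both SC+ arrays at days 3, 5 and 7 in 8 of the 21 (1.22% of all genes). In the additive fit *Tnnt2* and *Actc1* passed.

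**Figure D5:**
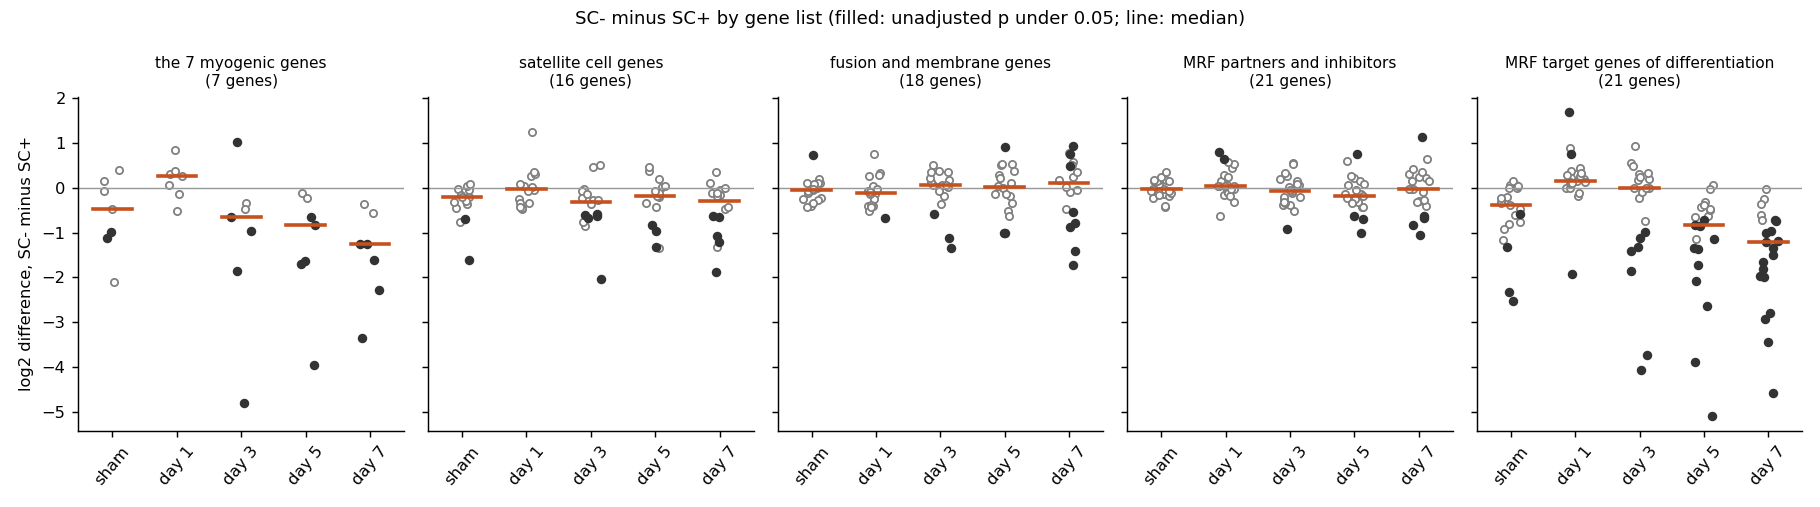
Difference in log2 level between SC- and SC+ muscle (y axis) of each gene in 5 lists by time point (x axis); filled points passed an unadjusted p under 0.05 and orange lines are medians. The medians of the 7 myogenic genes and of the MRF target genes reach -1.26 and -1.20 at day 7, and those of the fusion list and of the partners stay between -0.19 and 0.10.

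The lists of genes around the members followed them to different degrees. Of 16 other satellite cell genes, SC- was lower in 2, 0, 5, 3 and 5 in sham and at days 1, 3, 5 and 7, and higher in 0 (medians -0.21, -0.04, -0.32, -0.19 and -0.31), and 4 had both SC- arrays lower at days 3, 5 and 7. *Fgfr4*, a growth factor receptor of myoblasts, was at -2.04 at day 3 (adjusted p = 0.0107) and at -1.0 in the additive fit (adjusted p = 0.0245), and *Peg3*, an imprinted zinc finger gene, at -1.88 at day 7 (adjusted p = 0.0317). *Calcr*, the calcitonin receptor of resting satellite cells, was at -0.70 in sham (adjusted p = 0.82). It was at -0.89 without SC+ sham replicate 2 and at -0.51 without SC+ sham replicate 1.

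Of 18 genes of fusion and the membrane, *Mymx* among them, 4, 7, 9 and 10 rose in SC+ muscle and 3, 7, 9 and 10 in SC- muscle at the 4 days, with medians at day 7 of 0.97 and 1.12. Of all 19505 genes, 1696, 2334, 2215 and 2040 rose in SC+ and 1326, 2279, 2900 and 2935 in SC- muscle. The SC+ median of the 18 at day 7 was 1.18 without SC+ sham replicate 2. *Myof*, myoferlin, rose by 3.04 in SC+ and 4.15 in SC- muscle at day 7 (adjusted p = 0.00339 and 1.02e-05), and *Cdh2*, N-cadherin, by 2.09 and 2.67 (adjusted p = 0.00184 and 2.52e-05). The SC+ rises without SC+ sham replicate 2 were 4.14 for *Myof* and 2.74 for *Cdh2*, and without SC+ sham replicate 1 they were 1.93 and 1.45. SC- was lower in 0, 1, 3, 2 and 5 of the 18 and higher in 1, 0, 0, 1 and 3 in sham and at the 4 days, with medians of -0.05, -0.12, 0.05, 0.02 and 0.10. The sham median was 0.20 without SC+ sham replicate 2 and -0.03 without SC- sham replicate 2. *Jam3*, a junction protein of the satellite cell niche, lay lower over all time points (-0.65, adjusted p = 0.0245), and *Cav3*, the caveolin of fibres, at day 7 (-1.73, adjusted p = 0.0551). In this list 2 genes, *Mymx* and *Jam3*, had both SC- arrays lower at days 3, 5 and 7.

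Of 21 measured partners and inhibitors of the MRFs, SC- was lower in 0, 0, 1, 3 and 4 and higher in 0, 2, 0, 1 and 1 in sham and at days 1, 3, 5 and 7 (medians -0.04, 0.03, -0.07, -0.19 and -0.03), and 2 had both SC- arrays lower at days 3, 5 and 7. *Id2*, an inhibitor that takes the partners of the MRFs away, rose in SC+ muscle by 2.09, 3.00, 2.08 and 2.07 and in SC- muscle by 1.30, 1.95, 2.70 and 2.15 at the 4 days (highest adjusted p = 0.0167), and without SC+ sham replicate 2 its SC+ rises were 2.47, 3.39, 2.47 and 2.45. Its SC- rises without SC- sham replicate 2 were 1.70, 2.35, 3.10 and 2.55. They were smaller without SC- sham replicate 1, at 0.9, 1.55, 2.29 and 1.75. Its SC+ rises without SC+ sham replicate 1 were 1.7, 2.62, 1.7 and 1.68. *Id3* was higher in SC- muscle at day 7 (1.14, adjusted p = 0.122). *Snai2*, a repressor that competes for E-boxes, rose by 2.15 in SC+ and 2.89 in SC- muscle at day 7 (adjusted p = 0.000887 and 1.43e-06). Its SC+ rise was 2.69 without SC+ sham replicate 2 and 1.61 without SC+ sham replicate 1. *Mef2c*, a partner of the MRFs, was at -1.06 in SC- relative to SC+ at day 7 (adjusted p = 0.168).

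Marker genes of fibres and of other cells also differed between conditions, though the makeup of the muscle was not measured. Over all genes 5.99%, 5.46%, 9.2% and 12.1% differed in either direction at days 1, 3, 5 and 7, called as above. Counts of 1 in these short lists are given as a description only. Of 15 adult myofibre genes SC- was lower in 7 at day 5 and 8 at day 7 (medians -0.62 and -0.80), and the mean of that list at day 7 was 17.28 and 17.85 in SC- against 18.29 and 18.17 in SC+ arrays. Of 7 slow fibre genes 3 and 4 were lower. Of 11 proliferation genes 9 were higher in SC- at day 7 (median 0.95), with list means of 9.38 and 9.20 against 7.97 and 8.60. Macrophage genes were higher in 3 and 1 of 11 at days 5 and 7, neutrophil genes in 1 and 5 of 7 with 1 lower at day 7, endothelial genes in 5 and 2 of 9, and smooth muscle and pericyte genes in 1 and 3 of 8 with 1 lower at day 5. Tenocyte genes were higher in 3, 4 and 2 of 6 at days 1, 3 and 5 and fibroblast genes in 4 and 3 of 8 at days 1 and 3, with 1 lower at day 7. Schwann genes were higher in 1 of 5 at each of days 5 and 7, lymphocyte genes in 1 of 6 at each and adipocyte genes in 0 of 5. Both SC- arrays lay below both SC+ arrays at days 3, 5 and 7 in 1 of the 15 myofibre genes, 2 of the 7 slow fibre genes and in 0 of every other list of this paragraph. The part of these shifts in the levels of the 7 genes was not tested.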

How the data were processed

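The data are 20 arrays of whole plantaris RNA. The deposited values are on the log2 scale, as the authors obtained them by RMA, per the submitters' processing notes, over 28846 probe sets. The program's version is not given in the sources used here. The array type was not settled, since the model given in the methods does not match the style in which the probe sets are named. The platform annotation gave 19572 rows 1 symbol, and the brightest probe set was kept for each of 19505 genes. The other 9274 rows entered 1 alternative only. No raw intensity was used here.

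Models were fitted with limma 3.58.1 (lmFit and eBayes) in R 4.3.3, with p adjusted over all genes by Benjamini-Hochberg. SC+ MOV was compared with sham on the 10 SC+ arrays, and all else on the 20 arrays, with a mean for each group or, in the additive fit, with time point as a term. The response to MOV and the changes between days were called at an adjusted p under 0.05. SC- against SC+ and the difference between responses were called, after the study's own rule, at an unadjusted p under 0.05. The exact permutation was run in Python 3.11.15. The code was tested on simulated data.

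The 7 genes and the lists around them were chosen with earlier results of these data known. All 7 are named, with up to 4 of the genes past the threshold in each other list, *Mymx* and *Myh3* in any case, and the 3 genes most correlated with each member. *Fgfr4*, *Calcr*, *Jam3*, *Chrng* and others in the lists were named after their values were seen. Some genes of the lists were not analysed here, and each count is given over the genes measured. The number of arrays limits the precision, with a residual of 5 degrees of freedom in the SC+ fit and 10 in the fit of all arrays. In a fit without 1 array, the lone array of that group is taken to vary like the other groups. The numbers of the replicates were not taken to pair arrays.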

Additional observations from a re-analysis of the deposited data

Results flagged for a closer look

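The response to MOV differed between SC- and SC+ muscle, by a test of that difference in limma at an unadjusted p under 0.05, in 6 values. At day 1 it was 1.39 ± 0.45 (SE) for *Myf5* (adjusted p = 0.863) and 1.85 ± 0.60 for *Myog* (adjusted p = 0.863). At day 5 it was -0.75 ± 0.36 for *Cdh15* (adjusted p = 0.635). At day 7 it was -1.28 ± 0.60 for *Myog* (adjusted p = 0.528), -1.64 ± 0.60 for *Myf6* (adjusted p = 0.409) and -1.19 ± 0.36 for *Cdh15* (adjusted p = 0.339). None passed after adjustment over all genes, where 4.93%, 7.8% and 9.28% of genes passed unadjusted at days 1, 5 and 7.

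The *Myog* difference at day 1 was 1.09 and no longer passed without SC+ sham replicate 2. The *Myog* difference at day 7 was lost without any 1 of 13 arrays (-2.04 to -0.52) and that of *Cdh15* at day 5 without any 1 of 15 (-1.03 to -0.48). The *Myf6* difference at day 7 was lost without SC- day 7 replicate 2, SC- sham replicate 2, SC+ day 7 replicate 1 or SC+ sham replicate 1 (-2.21 to -1.07). Those of *Myf5* at day 1 and *Cdh15* at day 7 held with any 1 of the 20 arrays left out.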

How the results depend on the processing

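With 1 array left out at a time, the number of member calls ranged from 7 to 13 for the SC+ response (9 with all arrays), from 3 to 9 for the SC- response (8, and 3 without SC- sham replicate 2), from 15 to 19 for SC- against SC+ (17), from 3 to 10 for the difference between responses (6), from 0 to 2 for the additive fit (0) and from 3 to 5 for successive days (5). Over all genes the counts ranged from 8597 to 15450 (14918), 14062 to 18355 (17982), 6287 to 8398 (7476), 4396 to 6910 (5114), 0 to 24 (8) and 1616 to 3505 (2869) in the same order. A filter at a mean log2 of 6, which drops *Pax7*, *Myf5* and *Myod1*, left 11 member calls of SC- against SC+ and 3322 genes for the difference between responses. The additive fit called 0 genes with every probe set adjusted over, 0 with trend and robust moderation, and 31 genes and 1 member (*Mymk*, -2.92) on the MOV arrays alone. Signs turned with 1 array out for *Mymk* against SC+ sham at day 3 (-0.95 to 4.91), for *Mymk* between conditions in sham (-5.03 to 0.84), for *Myod1* between conditions at day 1 (-1.02 to 0.01), for the *Mymk* difference between responses at days 1 (-0.46 to 5.41), 3 (-5.63 to 0.23), 5 (-4.78 to 1.09) and 7 (-4.18 to 1.68) and for that of *Myog* at day 5 (-1.41 to 0.11). The arrays behind these turns are SC+ sham replicate 1 or 2 and, for *Myod1*, SC+ day 1 replicate 1.

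Among member values, 96 passed in no setting, and 39 of those changed sign in 1 or more. Calls lost with every probe set adjusted over or with trend and robust moderation were those of *Mymk* against sham at SC+ days 1 (adjusted p = 0.0747 and 0.175) and 7 (0.089 and 0.197) and SC- day 7 (0.102 and 0.16), of *Myf6* from SC- day 1 to 3 (0.0918 and 0.0532) and of *Cdh15* for the difference between responses at day 5. The difference between responses of *Myog* at day 7 was lost with every probe set (limma, unadjusted p = 0.0675) and with the filter at a mean log2 of 6 (0.0532). *Myf5* at SC+ day 7 was lost with every probe set adjusted over (adjusted p = 0.0649) and in a fit of all 20 arrays (adjusted p = 0.0696), and at SC- day 1 under 4 settings (0.0513 to 0.0835). Same-numbered arrays did not deviate together (correlations from -0.155 to 0.216, 12 of 45 pairs over 0.1), and a replicate block ended the call of *Mymk* at SC- day 7 (3.04, adjusted p = 0.0552) and of *Cdh15* for the day 5 difference between responses (-0.75, p = 0.0544) and no other. The mean of several probe sets per gene was not run, since each member has 1.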
